A study of Mus musculus with 24 samples.

Results

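The annexins and their partner S100a10 were followed in TM3 cells, a mouse Leydig cell line, after a nanosecond pulsed electric field (nsPEF) or sham treatment. The genes were Anxa1 to Anxa8, Anxa11 and S100a10, and their probes were found by the RefSeq transcript that the scanner text gives for each spot. This gave 15 probes of 10 genes out of 56605 probes and 23787 genes with a symbol on the array. Anxa1, Anxa2, Anxa3, Anxa4 and S100a10 each had a pair of probes, here called brighter and dimmer by mean signal, and the other 5 genes had 1 probe each. All 15 probes passed the filter on low signals (well above background on 2 or more arrays within some group) and were tested.

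Annexins are cytosolic proteins that bind phospholipids of the inner membrane face when calcium is present. When the plasma membrane is torn, calcium enters and annexins gather at the wound within seconds, where they link membranes, curve the edges and help vesicles to close the hole. Annexin A2 does much of its work as a complex with a dimer of S100A10 (p11), which holds a pair of annexin A2 molecules together, recruits the scaffold Ahnak and dysferlin, and binds plasminogen at the cell surface. Annexin A5 forms a lattice over exposed phosphatidylserine and is the protein used to stain it, annexin A6 caps the lesion and helps to shed or seal it, annexin A4 curves free edges, and annexin A7 helps to pinch off damaged membrane. Annexin A1 also signals to formyl peptide receptors after its release, and annexin A11 links membranes to ribonucleoprotein granules. An electric pulse that opens pores in the membrane puts the question of whether the transcripts of these proteins move, and this was compared here at each time point.

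Cells grown as 1 line were washed, put in suspension in the buffer used for annexin V binding and placed in electroporation cuvettes. The exposed cells received 80 pulses of 60 ns at 14 kV/cm, and the sham cells were handled the same way without pulses. RNA was taken immediately (0 h), at 4 h and at 24 h, and the 4 biological replicates of all 6 groups gave 24 one-colour arrays. Untouched cells that were never detached are not among the groups, so a change with time is a change after harvest, buffer and cuvette in both treatments. In such bulk RNA, fewer cells of a type and less RNA per cell cannot be told apart.

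The arrays of each time point shared 1 slide of 8 arrays and 1 scan, and on every slide the sham arrays lay in row 1 and the nsPEF arrays in row 2. Time cannot be told apart from slide and scan, nor treatment from the row of the slide. The 75th percentile of the signal, in arbitrary units, was between 297 and 787, and sham replicate 4 at 4 h was the brightest array. Between 51.2% and 62.1% of the probes were well above background on an array. Of 11 Leydig markers looked for, 10 had a probe, and Star, Cyp17a1, Nr5a1, Gata4 and Scarb1 were well above background on all 24 arrays. Hsd3b1 was so on 1 array, and Cyp11a1, Hsd3b6, Hsd17b3 and Lhcgr on 0 arrays. Thus 5 of the 10 Leydig markers on the array were seen throughout, and defining steroidogenic genes were not seen. Markers of other cells were also well above background on all 24 arrays. These were 3 of 6 for macrophages, 2 of 4 for peritubular myoid cells, 2 of 7 for Sertoli cells and 1 of 4 for endothelium. The markers alone therefore do not settle the labelled cell type.

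Promoter sequence was looked at for a set that moved together, since the transcripts of Anxa2, Anxa5 and Anxa8 all rose at 4 h and that of Anxa1 did not. RefSeq promoters on GRCm38.p6 were given for 7 of the 10 genes, and those of Anxa3, Anxa6 and S100a10 are not used here. The 250 bases before the transcription start are printed 5′ to 3′ along the strand of the gene, with capitals marking TGANTCA, the AP-1 site bound by Fos and Jun, and TATAAA, the TATA box. Anxa2 lies on the plus strand of chr9:69453433-69453682, Anxa5 on the minus strand of chr3:36475888-36476137, Anxa8 on the plus strand of chr14:34085729-34085978 and Anxa1 on the minus strand of chr19:20390672-20390921.
Anxa2: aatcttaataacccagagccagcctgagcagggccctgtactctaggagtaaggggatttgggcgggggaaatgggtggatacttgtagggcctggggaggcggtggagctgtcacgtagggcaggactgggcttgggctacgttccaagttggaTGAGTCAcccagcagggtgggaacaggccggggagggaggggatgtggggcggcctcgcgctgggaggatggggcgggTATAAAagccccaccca
Anxa5: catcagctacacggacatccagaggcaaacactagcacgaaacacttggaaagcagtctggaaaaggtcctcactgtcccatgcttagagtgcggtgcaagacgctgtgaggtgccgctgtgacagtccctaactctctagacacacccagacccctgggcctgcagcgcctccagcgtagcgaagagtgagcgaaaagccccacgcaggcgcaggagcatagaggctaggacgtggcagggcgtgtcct
Anxa8: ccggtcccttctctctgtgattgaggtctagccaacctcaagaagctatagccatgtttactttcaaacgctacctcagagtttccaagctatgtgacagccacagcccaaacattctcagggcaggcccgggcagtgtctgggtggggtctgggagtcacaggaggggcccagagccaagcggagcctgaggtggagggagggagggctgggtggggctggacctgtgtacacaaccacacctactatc
Anxa1: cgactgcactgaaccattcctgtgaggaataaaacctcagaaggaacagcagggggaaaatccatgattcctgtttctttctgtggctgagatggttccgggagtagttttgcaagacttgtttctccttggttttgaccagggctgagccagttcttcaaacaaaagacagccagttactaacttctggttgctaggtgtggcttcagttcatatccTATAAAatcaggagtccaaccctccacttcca

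The Anxa2 promoter had an AP-1 match beginning 95 bases before the start and a TATA box beginning 17 bases before it. It also held 3 GC boxes (GGGCGG), beginning 190, 48 and 24 bases before the start, and its GC content was 62.4%. The promoters of Anxa5 (58.8% GC) and Anxa8 (58.0% GC) held none of the 5 motifs searched, and that of Anxa1 (46.0% GC) had a TATA box beginning 32 bases before the start. Both strands were searched, no letters of one motif overlapped another in these 4 sequences, and a match describes letters and not a bound site. Over 32851 mouse promoters of the same length, the AP-1 letters stood in 6.75%, the TATA box in 12.4% and the GC box in 32.7%. The cyclic AMP response element (TGACGTCA) stood in 1.55% and the heat shock letters GAANNTTC in 6.69%. Of the 7 annexin genes with a promoter, 1 had the AP-1 letters, 2 the TATA box, 3 the GC box, 1 the heat shock letters (Anxa11) and 0 the cyclic AMP element. A gene was counted if any of its promoters matched, and Anxa4 and Anxa7 had 2 promoters each. Anxa2, Anxa5 and Anxa8 did not share a motif among those searched, and for Anxa3 and S100a10, which also rose at 4 h, this was not looked at.

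From 0 h to 4 h the transcripts of Anxa2, S100a10, Anxa3, Anxa5 and Anxa8 rose in sham and in nsPEF-exposed cells, by 1.27-fold to 1.89-fold in sham and by 1.38-fold to 2.03-fold after nsPEF, and all of their 8 probes then fell to 24 h, though in sham 6 of these falls turned to rises when arrays were scaled to spike-in RNA. Anxa6 fell from 0 h to 4 h in both treatments. Of Anxa1, Anxa4, Anxa7 and Anxa11, 1 Anxa1 probe was called lower in sham alone and 1 Anxa4 probe lower after nsPEF alone. The calls were made with limma at an adjusted p under 0.05 over all 37684 probes tested. In sham, 8 of the 15 probes were higher at 4 h and 2 were lower, in an experiment in which 28.8% of all probes tested were called higher and 30.5% lower. In nsPEF-exposed cells 8 were higher (33.2% of all probes) and 2 lower (28%). The 8 higher probes were the same in both treatments, which 25.7% of all probes were, and Anxa6 was the 1 probe lower in both (24.7% of all). The median change of the 15 probes on the log2 scale was 0.35 in sham and 0.47 after nsPEF, beside -0.02 and 0.09 over all probes tested. The groups of the 2 times did not overlap for 10 of the 15 probes in sham (58.2% of all probes) and for 9 after nsPEF (56.2%).

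**Figure D1:**
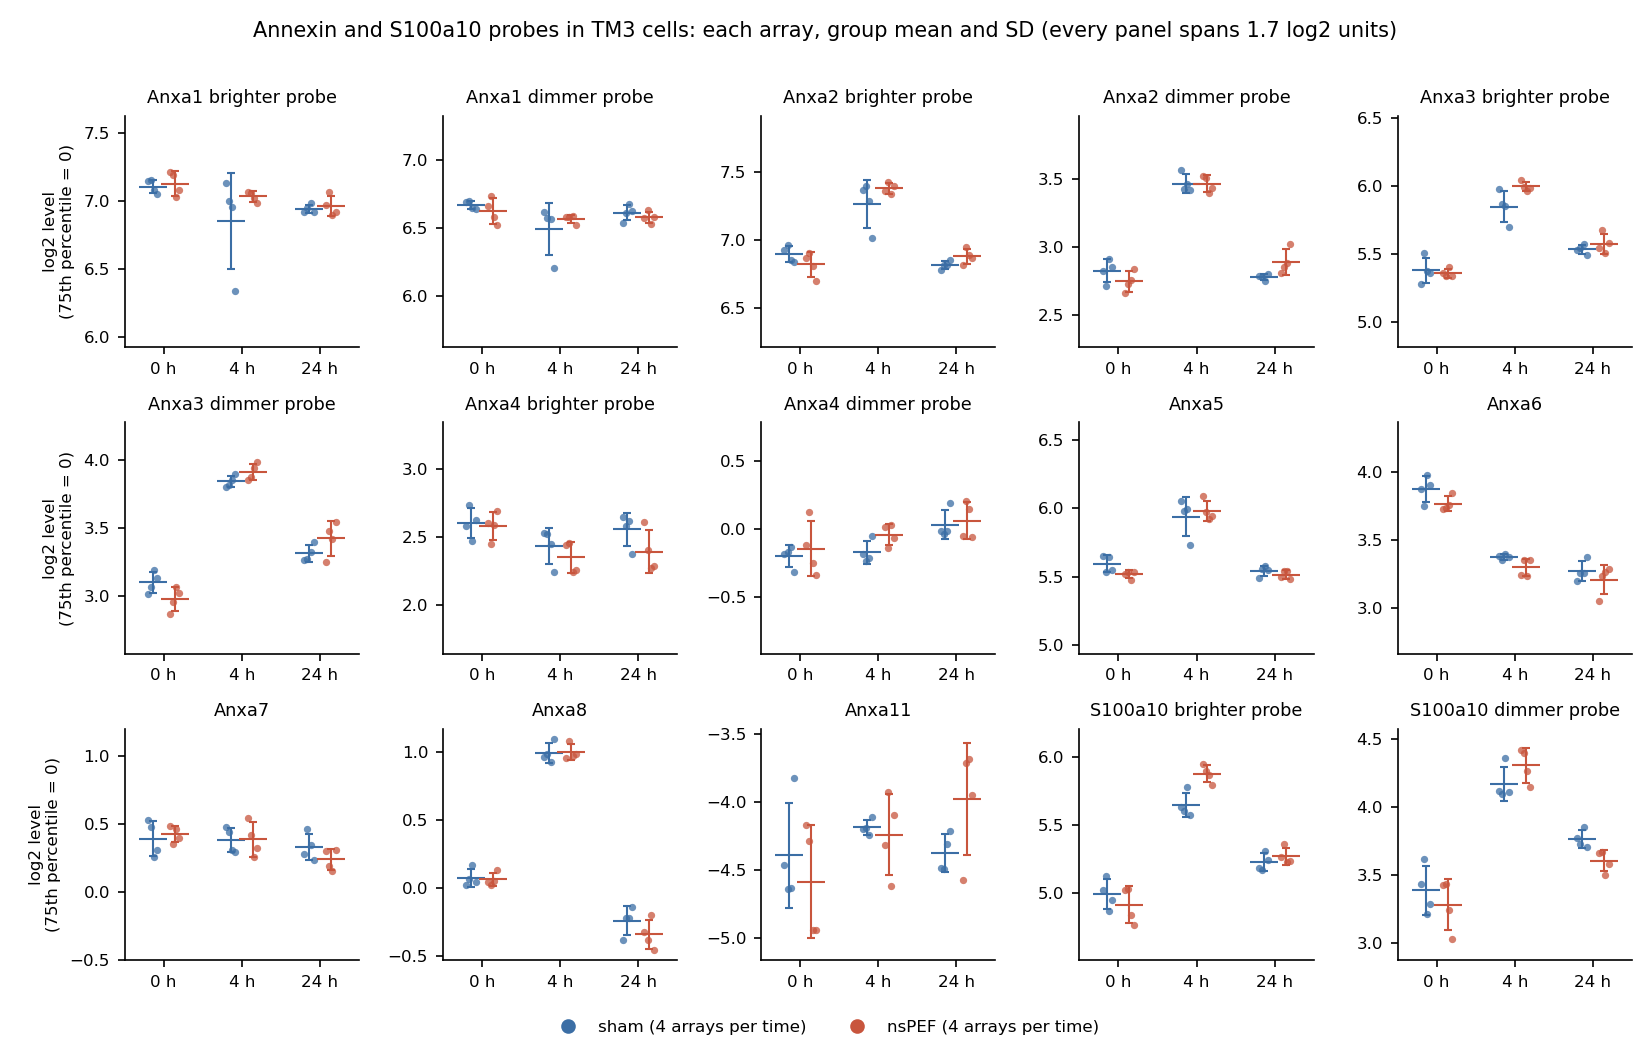
Log2 level of each of the 15 probes of the annexins and S100a10 (signal relative to the array's 75th percentile), with 1 panel per probe, 1 point per array, 4 arrays per group, a bar at each group mean and whiskers of 1 SD, for sham and nsPEF-exposed cells at 0, 4 and 24 h. The probes of Anxa2, Anxa3, Anxa5, Anxa8 and S100a10 stand higher at 4 h than at 0 h in both treatments while Anxa6 steps down; under scaling to the spike-in RNA the same 4 h changes keep their direction.

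Levels are given as log2 of the signal over the 75th percentile of the same array, in the order of replicates 1 to 4, and the level of one probe is not set against that of another. The brighter Anxa2 probe (A_55_P2110713) was at 6.93, 6.97, 6.86 and 6.84 in sham at 0 h and at 7.37, 7.39, 7.29 and 7.01 at 4 h. After nsPEF it was at 6.87, 6.91, 6.81 and 6.70 at 0 h and at 7.36, 7.42, 7.34 and 7.39 at 4 h. Every 4 h array was above every 0 h array in both treatments, and the lowest of them was sham replicate 4, the brightest array. The probe rose by 0.37 in sham (SE 0.0663, adjusted p = 6.73e-05, 1.29-fold) and by 0.56 after nsPEF (adjusted p = 3.42e-07, 1.47-fold). Without sham replicate 4 the rise in sham was 0.45.

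The dimmer Anxa2 probe (A_51_P165342) gave the same direction with a larger size. Its levels in sham were 2.83, 2.71, 2.91 and 2.86 at 0 h, then 3.57, 3.42, 3.46 and 3.42 at 4 h, then 2.79, 2.78, 2.75 and 2.80 at 24 h. After nsPEF they were 2.66, 2.73, 2.76 and 2.84, then 3.53, 3.51, 3.40 and 3.43, then 2.81, 2.85, 2.88 and 3.02. The 4 h arrays stood clear of both other time points in either treatment. The rise was 0.64 in sham (SE 0.0552, adjusted p = 3.05e-09, 1.56-fold) and 0.72 after nsPEF (adjusted p = 4.87e-10, 1.65-fold), and the differences from 4 h to 24 h were -0.69 and -0.58.

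S100a10 encodes the partner that joins annexin A2 into its complex, and it moved in the same direction as Anxa2. Its brighter probe (A_51_P342871) was at 5.02, 5.13, 4.87 and 4.95 in sham at 0 h, at 5.63, 5.60, 5.78 and 5.57 at 4 h and at 5.18, 5.16, 5.31 and 5.24 at 24 h. In nsPEF-exposed cells it was at 5.02, 5.03, 4.84 and 4.76, then at 5.94, 5.89, 5.87 and 5.79, then at 5.26, 5.36, 5.22 and 5.23. No array of 1 time point overlapped those of another in either treatment, with 4 h highest and 0 h lowest. The rise to 4 h was 0.65 in sham (SE 0.0677, adjusted p = 4.59e-08, 1.57-fold) and 0.96 after nsPEF (adjusted p = 1.21e-10, 1.95-fold). The dimmer probe (A_66_P137316) was at 3.43, 3.61, 3.21 and 3.29 in sham at 0 h and at 4.11, 4.09, 4.36 and 4.11 at 4 h, with no overlap, and rose by 0.78 (SE 0.0963, adjusted p = 5.72e-07, 1.72-fold). After nsPEF it went from 3.42, 3.43, 3.24 and 3.03 to 4.41, 4.40, 4.26 and 4.14, a rise of 1.02 (adjusted p = 1.11e-08, 2.03-fold) that again left no overlap.

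Anxa3, an annexin known for its action on phospholipase and for its place in phagocytic cells, rose as well. In sham its brighter probe (A_51_P451032) was at 5.28, 5.50, 5.37 and 5.36 at 0 h, at 5.97, 5.86, 5.85 and 5.70 at 4 h and at 5.53, 5.54, 5.57 and 5.49 at 24 h. After nsPEF it was at 5.36, 5.34, 5.40 and 5.33, 6.04, 5.99, 5.96 and 5.98 and 5.54, 5.67, 5.50 and 5.57 at these times. The groups at 4 h lay above all others, and the sham groups at 0 h and 24 h overlapped at replicate 2 of 0 h. The rise to 4 h was 0.47 in sham (SE 0.055, adjusted p = 2.86e-07, 1.38-fold) and 0.64 after nsPEF (adjusted p = 2.93e-09, 1.55-fold). The dimmer probe (A_55_P2056325) went from 3.01, 3.06, 3.19 and 3.13 to 3.80, 3.82, 3.86 and 3.89 in sham and from 2.87, 2.96, 3.07 and 3.02 to 3.86, 3.87, 3.94 and 3.98 after nsPEF. These groups did not overlap, and the rises were 0.74 (adjusted p = 1.46e-09, 1.67-fold) and 0.94 (adjusted p = 3.79e-11, 1.91-fold), so that in all 3 genes with a pair of probes that rose, the brighter probe gave the smaller rise.

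Anxa5 encodes the annexin that binds phosphatidylserine on the outside of damaged or dying cells. Its only probe (A_51_P426754) was at 5.65, 5.53, 5.64 and 5.55 in sham at 0 h, at 6.06, 5.98, 5.99 and 5.73 at 4 h and at 5.49, 5.56, 5.58 and 5.55 at 24 h. After nsPEF the levels were 5.52, 5.54, 5.47 and 5.53, then 6.09, 5.97, 5.92 and 5.95, then 5.50, 5.54, 5.54 and 5.48. The 4 h groups stood above all others, while the 0 h and 24 h groups overlapped in both treatments. The rise was 0.35 in sham (SE 0.0568, adjusted p = 2.28e-05, 1.27-fold) and 0.47 after nsPEF (adjusted p = 4.55e-07, 1.38-fold), and the change from 0 h to 24 h was -0.05 in sham (95% confidence interval -0.17 to 0.07) and -0.00 after nsPEF (-0.12 to 0.12).

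Anxa8, best known from epithelia and as an inhibitor of coagulation and phospholipase, had the largest differences between 4 h and 24 h among the 15 probes. In sham the probe (A_51_P207591) was at 0.03, 0.07, 0.18 and 0.04 at 0 h, rose to 0.97, 0.99, 0.93 and 1.10 at 4 h and stood at -0.38, -0.22, -0.22 and -0.13 at 24 h. After nsPEF it was at 0.05, 0.03, 0.05 and 0.13, at 0.96, 1.08, 0.97 and 0.98 and at -0.32, -0.38, -0.20 and -0.45. The 3 time points did not overlap in either treatment, and 24 h was below 0 h. Anxa8 rose by 0.92 in sham (SE 0.0602, adjusted p = 4.41e-11, 1.89-fold) and by 0.93 after nsPEF (adjusted p = 3.04e-11, 1.91-fold), and the differences from 4 h to 24 h were -1.23 (adjusted p = 6.87e-13, 2.35-fold) and -1.34 (adjusted p = 2.19e-13, 2.53-fold).

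Anxa6, which encodes the annexin with a doubled core that caps membrane lesions, was the member that fell in both treatments. Its probe (A_55_P2076792) was at 3.87, 3.75, 3.98 and 3.90 in sham at 0 h, at 3.38, 3.35, 3.40 and 3.37 at 4 h and at 3.20, 3.25, 3.25 and 3.37 at 24 h. In nsPEF-exposed cells it was at 3.73, 3.73, 3.76 and 3.84, at 3.24, 3.35, 3.24 and 3.36 and at 3.05, 3.24, 3.27 and 3.28. All arrays of 0 h lay above all arrays of 4 h and 24 h in their own treatment, whereas the 4 h and 24 h groups overlapped in both. The change from 0 h to 4 h was -0.50 in sham (SE 0.0576, adjusted p = 2.22e-07, 1.41-fold) and -0.47 after nsPEF (adjusted p = 5.48e-07, 1.38-fold), and from 0 h to 24 h it was -0.61 (adjusted p = 8.42e-08) and -0.56 (adjusted p = 2.32e-07), though 0.12 and -0.03 with scaling to spike-in RNA.

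Anxa1, whose protein is both a repair annexin and a released signal, gave 1 call from 0 h to 4 h, which was lost without any of 3 sham arrays. The brighter Anxa1 probe (A_55_P2092826) was at 7.14, 7.15, 7.08 and 7.05 in sham at 0 h and at 7.13, 7.0, 6.95 and 6.33 at 4 h, where replicate 4 stands apart. After nsPEF it was at 7.21, 7.19, 7.02 and 7.07 at 0 h and at 7.06, 7.06, 7.02 and 6.98 at 4 h. Neither difference passed the test, at -0.25 in sham (95% confidence interval -0.48 to -0.02, adjusted p = 0.053) and -0.09 after nsPEF (-0.32 to 0.13). The dimmer probe (A_51_P283590) was called lower in sham at 4 h (-0.18, adjusted p = 0.0327), at 6.62, 6.58, 6.57 and 6.21 against 6.69, 6.70, 6.65 and 6.64 at 0 h. Without sham replicate 4 at 4 h that difference was -0.08 (adjusted p = 0.156) and the count of called probes in sham became 9, and without sham replicate 1 or 2 at 0 h it was -0.17 (adjusted p = 0.0664 and 0.0685).

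Anxa4 and Anxa7, which act at the edges of a membrane wound, and Anxa11 gave scattered calls near the threshold. The brighter Anxa4 probe (A_55_P2092859) was called lower at 4 h after nsPEF, at 2.44, 2.46, 2.25 and 2.26 against 2.60, 2.45, 2.59 and 2.69 at 0 h, groups that overlap at their edges (-0.23, adjusted p = 0.0297). That call was lost with spike-in scaling (-0.11, adjusted p = 0.416) and without replicate 1, 3 or 4 of nsPEF at 0 h or replicate 3 or 4 at 4 h (adjusted p from 0.0527 to 0.0891). The dimmer Anxa4 probe (A_66_P131538) was not called at 4 h, and its interval was -0.15 to 0.21 in sham and -0.08 to 0.29 after nsPEF. The pair of Anxa4 probes therefore did not give 1 answer. Anxa7 (A_55_P1962039) lay between 0.15 and 0.54 on all 24 arrays, with changes to 4 h of -0.01 in sham (-0.16 to 0.14) and -0.04 after nsPEF (-0.19 to 0.11). Anxa11 (A_55_P2084820) had a mean signal of only 22.1 units and was well above background on 23 arrays, and its changes to 4 h were 0.21 in sham (-0.25 to 0.66) and 0.35 after nsPEF (-0.11 to 0.80), so a change of the size seen in Anxa2 could not be told from none.

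From 4 h to 24 h, 8 of the 15 probes fell in sham, where 28.6% of all probes did, and 8 fell after nsPEF, where 28% did, and 0 rose in either (29% and 28.6% of all probes rose), whereas with spike-in scaling 12 were called higher in sham (66.1% of all probes on that scale) and 7 after nsPEF (51.3%). They were the 8 probes that had risen, and 18.2% of all probes tested were called both higher at 4 h than 0 h and lower at 24 h than 4 h in both treatments. The 4 h and 24 h groups did not overlap for 9 probes in sham (56.3% of all) and 8 after nsPEF (50.5%). The 2 steps share the 4 h arrays and are therefore not independent of each other. The differences from 4 h to 24 h were -0.45 in sham and -0.50 after nsPEF for the brighter Anxa2 probe, -0.42 and -0.61 for the brighter S100a10 probe, -0.31 and -0.42 for the brighter Anxa3 probe and -0.40 and -0.47 for Anxa5.

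At 24 h against 0 h, 5 probes were higher in sham (17.7% of all probes) and 2 lower (19%), and 6 were higher after nsPEF (25.3%) and 3 lower (17.5%). Both Anxa3 probes and both S100a10 probes were higher in both treatments, a count of 4 (13.1% of all probes), and Anxa6 and Anxa8 were lower in both (12.2%). The groups of these times did not overlap for 7 probes in sham (42.5% of all) and for 7 after nsPEF (38.9%). The brighter S100a10 probe was higher by 0.23 in sham (adjusted p = 0.0106) and by 0.36 after nsPEF (adjusted p = 0.000285), and the dimmer Anxa3 probe by 0.21 (adjusted p = 0.00924) and 0.44 (adjusted p = 8.63e-06). Anxa8 differed by -0.32 in sham (adjusted p = 0.000346) and by -0.40 after nsPEF (adjusted p = 2.2e-05), though by 0.41 and 0.13 with scaling to spike-in RNA, under which 14 of the 15 probes were called higher at 24 h in sham (76.5% of all probes on that scale) and 13 after nsPEF (70.1%). In sham alone the dimmer Anxa4 probe was called higher (0.23, adjusted p = 0.043). After nsPEF alone the dimmer Anxa2 probe (0.14, adjusted p = 0.0427) and Anxa11 (0.61, adjusted p = 0.0303) were called higher and Anxa7 lower (-0.18, adjusted p = 0.0479), and for none of these probes did the change from 0 h to 24 h pass a test of its difference between treatments. With single arrays left out, Anxa11 was not called, at 0.49 to 0.60, without replicate 3 or 4 of nsPEF at 0 h or without replicate 2, 3 or 4 of nsPEF at 24 h, and with normexp background correction it was at 0.06 (adjusted p = 0.784). Of the 24 h calls above, 2 of the 5 higher ones in sham (the dimmer Anxa4 and the brighter Anxa3 probe, each without any of 6 arrays), 3 of the 6 higher ones after nsPEF (Anxa11, the dimmer Anxa2 probe without any of 8 arrays and the dimmer S100a10 probe without nsPEF replicate 4 at 0 h, adjusted p = 0.0514) and Anxa7 (without any of 12) were lost in this way. With all arrays of 1 replicate number left out, each of the 5 higher calls in sham was lost at least once.

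**Figure D2:**
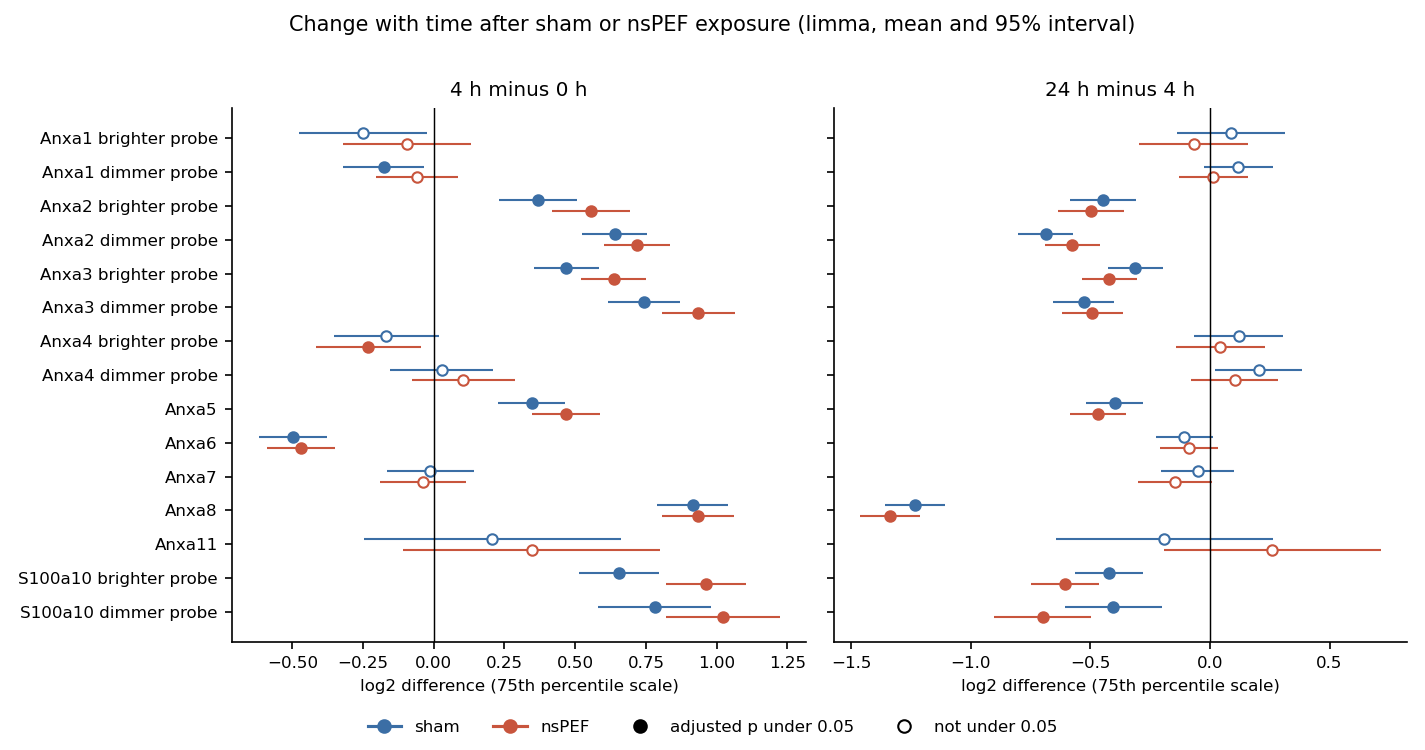
Log2 difference between time points for each of the 15 probes, in sham and in nsPEF-exposed cells, with 95% confidence intervals from limma (n = 4 arrays per group) and a line at 0. In the 4 h against 0 h panel 10 probes lie above 0 and 5 below it in either treatment, and 8 probes above 0 and Anxa6 below 0 were called in both. The falls of the same 8 probes to 24 h turn into rises in sham for 6 of them when arrays are scaled to the spike-in RNA.

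The scale between slides decided the direction of part of this. When arrays were scaled to the signal of spike-in RNA in place of the 75th percentile, the median difference of all tested probes moved from -0.02 to 0.04 for 4 h against 0 h in sham, from 0.09 to 0.20 in nsPEF, from 0.04 to 0.70 for 24 h against 4 h in sham and from -0.00 to 0.41 in nsPEF. The 4 h rises kept their sign and their call, at 0.43 and 0.67 for the brighter Anxa2 probe in sham and nsPEF, 0.72 and 1.08 for the brighter S100a10 probe, 0.41 and 0.59 for Anxa5 and 0.98 and 1.05 for Anxa8, and Anxa6 stayed lower at -0.44 and -0.35. The falls from 4 h to 24 h in sham turned into rises for the brighter Anxa2 probe (0.21), both Anxa3 probes (0.35 and 0.13), Anxa5 (0.26) and both S100a10 probes (0.24 and 0.26). Anxa8 still fell in sham under that scale (-0.57). After nsPEF the 8 falls kept their sign and 3 of them their call.

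Between nsPEF-exposed and sham cells at the same time point, no annexin or S100a10 probe passed the test. The count was 0 of 15 at 0 h, where limma called 0.103% of all tested probes, 0 of 15 at 4 h (2.91%), 0 of 15 at 24 h (4.82%) and 0 of 15 for the treatment over all time points (7.66%). At an unadjusted p under 0.05 the counts were 0, 2, 0 and 1. At these 3 times the lowest adjusted p was 0.566, 0.0686 and 0.242. Apart from Anxa11, the 95% confidence intervals of the 14 other probes ran between -0.31 and 0.25 at 0 h, between -0.27 and 0.41 at 4 h and between -0.36 and 0.25 at 24 h on the log2 scale. In the same order the median difference of the 15 probes was -0.07, 0.07 and 0.02, beside -0.02, 0.02 and 0.04 over all tested probes.

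**Figure D3:**
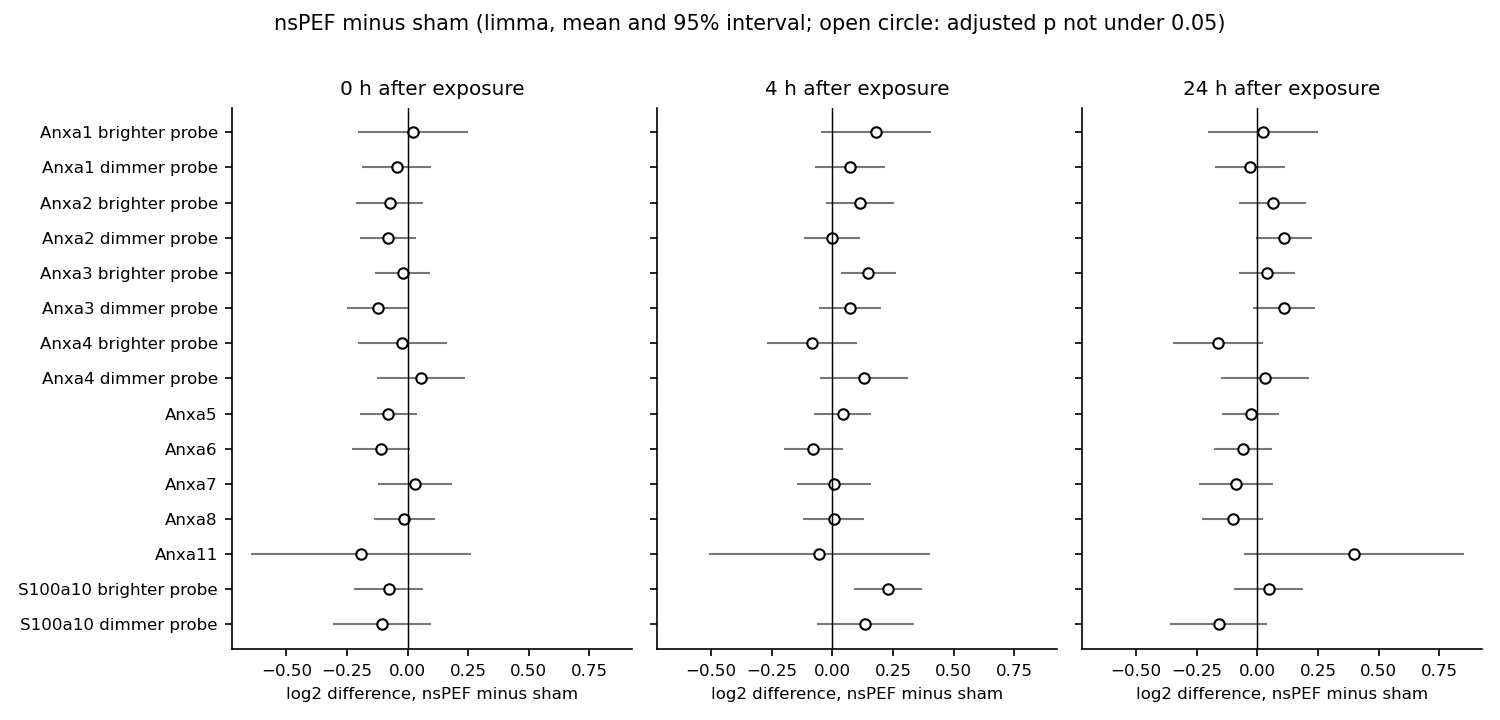
Log2 difference of nsPEF-exposed minus sham cells for each of the 15 probes at 0, 4 and 24 h, with 95% confidence intervals from limma (n = 4 arrays per group) and a line at 0. At 4 h the brighter S100a10 probe stands highest at 0.23 (0.09 to 0.37, adjusted p = 0.0686) and the other intervals lie near or across 0; scaling to the spike-in RNA raises the 4 h differences and calls 8 of the 15 probes, and 23.2% of all probes, higher.

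The nearest to a call was the brighter S100a10 probe at 4 h. Its nsPEF arrays were at 5.94, 5.89, 5.87 and 5.79 and its sham arrays at 5.63, 5.60, 5.78 and 5.57, so that the groups lay apart by the gap between 5.79 and 5.78. The difference was 0.23 (SE 0.0677, 95% confidence interval 0.09 to 0.37, adjusted p = 0.0686, 1.17-fold). At 4 h 1 of the 15 probes had groups that did not overlap, beside 13.4% of all probes, and at 0 h 0 did (8.04%). The dimmer S100a10 probe differed by 0.14 (-0.07 to 0.34, adjusted p = 0.442) with overlapping groups, and without sham replicate 4 the brighter probe differed by 0.21 (adjusted p = 0.123). Over the alternatives in processing the adjusted p of the brighter probe was between 0.00310, with scaling to spike-in RNA, and 0.129, with quantile normalization.

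For Anxa2, the partner of S100a10, the brighter probe differed by 0.11 at 4 h (-0.02 to 0.25, adjusted p = 0.343) and the dimmer probe by -0.00 (-0.12 to 0.11, adjusted p = 0.998). Anxa3 differed by 0.15 with its brighter probe (0.03 to 0.26, adjusted p = 0.139) and by 0.07 with its dimmer probe (-0.06 to 0.20). Anxa5, whose protein marks exposed phosphatidylserine, differed by 0.04 (-0.08 to 0.16), Anxa6 by -0.08 (-0.20 to 0.04) and Anxa8 by 0.00 (-0.12 to 0.13). At 24 h the dimmer Anxa2 probe lay higher after nsPEF with no overlap (0.11, adjusted p = 0.242) and the dimmer S100a10 probe lower with no overlap (-0.16, adjusted p = 0.332), a count of 2 beside 13.6% of all probes. Their brighter probes overlapped between treatments at 24 h, with differences of 0.06 and 0.05.

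Whether the time course itself differed was tested as the change in nsPEF minus the change in sham. For 0 h to 4 h 0 of 15 probes passed (0.0345% of all probes), for 0 h to 24 h 0 of 15 (0.287%), for 4 h to 24 h 0 of 15 (0.422%) and for the interaction of treatment and time 0 of 15 (0.356%). The interaction gave 2 probes at an unadjusted p under 0.05. The brighter S100a10 probe rose by 0.31 more after nsPEF than in sham (0.11 to 0.51, adjusted p = 0.318), and this sum shares the 4 h arrays with the difference above. Under spike-in scaling 8 probes were called higher after nsPEF at 4 h, where 23.2% of all probes were, among them both S100a10 probes (0.43 and 0.33), both Anxa3 probes (0.34 and 0.27) and the brighter Anxa2 probe (0.31), while the median of all tested probes stood at 0.22 on that scale.

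The brightest probes followed the brightness of their array less closely than others. Within groups, the slope of log2 signal on the log2 of the array's 75th percentile was 1.01 at the median for probes of 1000 to 3000 units, 0.877 for 10000 to 20000, 0.747 for 20000 to 40000, 0.571 for 40000 to 80000 and 0.314 above 80000. A slope under 1 leaves such a probe low on a bright array and high on a dim one after scaling. The slope was 0.529 for the brighter Anxa1 probe (mean signal 55498 units), 0.719 for the brighter Anxa2 probe (55849 units), 0.815 for Anxa5 and 0.83 for the brighter S100a10 probe, and 0.993 for the dimmer Anxa2 probe (3537 units). Part of this rests on sham replicate 4 at 4 h. Without that array the slope came nearer to 1 for the brighter Anxa2 probe (0.833) and Anxa5 (0.940). For the brighter S100a10 probe it went further from 1 (0.794). The median for probes of 40000 to 80000 units was then 0.596. The number of saturated spots among the members was 0.

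**Figure D4:**
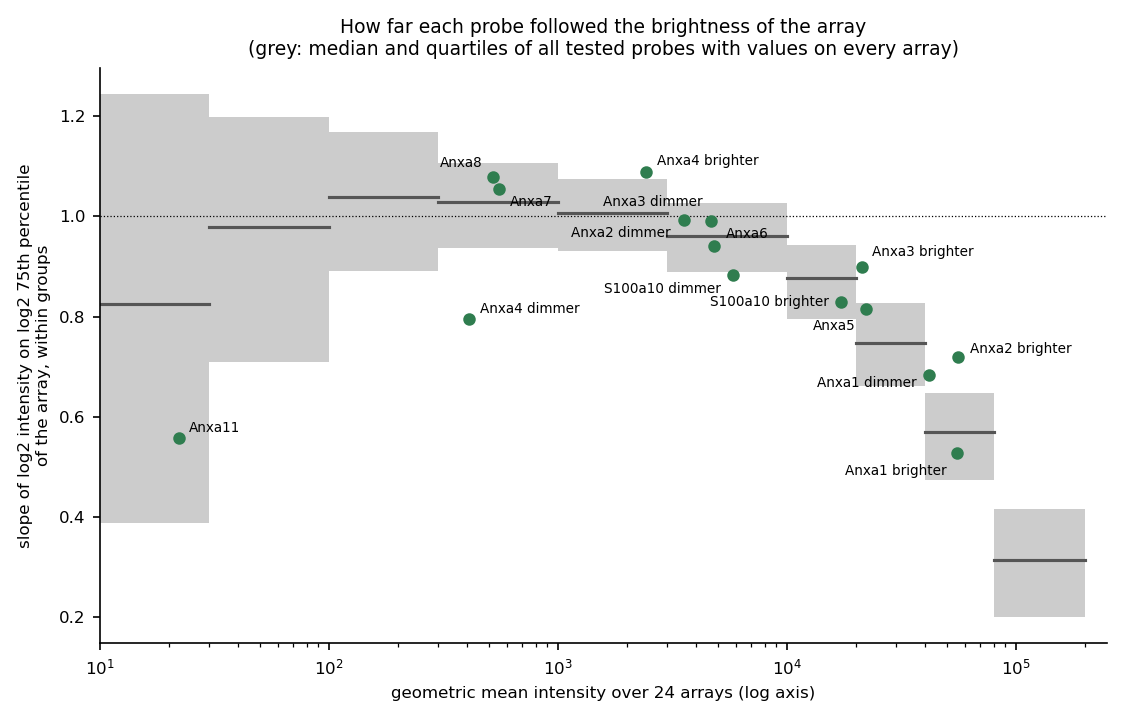
Slope of a probe's log2 signal on the log2 of the array's 75th percentile within groups, against the mean signal of the probe in arbitrary units on a log axis, with all probes as the median and quartiles per brightness class and the 15 annexin and S100a10 probes as points. The median slope is 0.825 in the dimmest class, lies between 0.96 and 1.04 in the classes from 30 to 10000 units and declines to 0.314 above 80000. The Anxa1 probes, the brighter Anxa2, Anxa3 and S100a10 probes and Anxa5 lie on the declining stretch.

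The brighter Anxa1 probe is printed in 10 spots spread from row 11 to row 366 of 384, so that its reading could be checked within an array. The SD between its spots on 1 array was between 0.0207 and 0.0692 on the log2 scale, with a median of 0.0363. On sham replicate 4 at 4 h the probe had a signal of 63471 units, within its range of 43316 to 64692 units over the 24 arrays, although that array had the highest 75th percentile (787). Its scaled level of 6.33 was the lowest of all arrays. Without that array the slope of the probe was 0.839, and the dimmer Anxa1 probe went from 0.684 to 0.813.

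The genes whose levels over the 24 arrays were most like those of a member are given as a description, among 23398 probes with a symbol that were compared. For the brighter Anxa1 probe they were Atp5g3 (Pearson r = 0.959), H2az1 (0.956) and Ppia (0.954), with mean signals of 50661 or more and slopes of 0.572, 0.533 and 0.183. For the dimmer Anxa1 probe they were Tuba1b (0.898), Hint1 (0.880) and Wdr92 (0.868). The brighter Anxa2 probe was most like Hnrnpab (0.973), Arpc2 (0.972) and Eif3d (0.972), and the dimmer one most like Rbms1 (0.992) and Ccm2 (0.988). The likest to S100a10 were Polr1d (0.986), Naa15 (0.982) and Polr2d (0.977) with the brighter probe and Wdr20 (0.977), Kif5b (0.977) and Isg20l2 (0.976) with the dimmer one. The 2 probes of a gene named different genes in all 3 cases, and the arrays share slide, time and brightness.

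Other genes of membrane repair were read from lists of 95 genes, of which 92 had a probe and 77 were tested, each by its brightest probe. Between nsPEF and sham 0 of 77 passed at 0 h (0.0891% of all genes tested), 2 were lower at 4 h (1.7% of all genes), and 1 was higher and 2 lower at 24 h (3.19% and 2.54%). At 4 h Rab3a, a GTPase of vesicle docking, was lower after nsPEF (-0.40, adjusted p = 6.35e-05). Plscr4, a phospholipid scramblase, was called lower too, but it was well above background on 0 of the 8 arrays at 4 h, so no size is given. At 24 h Capn12, a calpain, was higher (0.30, adjusted p = 0.0469) and Cast, the inhibitor of calpains, and Serpinb2, an inhibitor of plasminogen activators, were lower (-0.30, adjusted p = 0.0417, and -0.25, adjusted p = 0.0218). Over all time points 1 gene was higher and 3 lower (4.3% and 4.06%), namely Ahnak (0.15, adjusted p = 0.0383), Capn1 (-0.13, adjusted p = 0.0320), Rab3a and Plscr4. These called differences kept their sign with scaling to spike-in RNA, but Rab3a moved to -0.21 at 4 h and Capn1 to -0.04 over all times.

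Over time the calls in the lists were as follows. A listed gene called in 1 treatment and not in the other is not thereby shown to differ between treatments. No test of such a difference in the change with time is given here for listed genes. In sham 28 of the 77 genes rose and 23 fell from 0 h to 4 h (30.3% and 35.5% of all genes), and after nsPEF 36 rose and 18 fell (34.6% and 33.2%). In the plasminogen system that works at the annexin A2 complex, 5 of 6 genes were higher and 1 lower at 4 h in either treatment, with a median change of 0.90 in sham and 0.87 after nsPEF, beside -0.05 and 0.04 over all genes. Serpinb2 rose by 4.57 in sham (23.7-fold) and 4.72 after nsPEF (26.3-fold), and Plaur, the urokinase receptor, by 3.20 and 3.29. Plat and Plau, the activators, rose by 0.98 and 0.83 in sham, and Plgrkt, a plasminogen receptor, fell (-0.45). Plg, which encodes plasminogen, also counts among the higher genes but was dim. After nsPEF it was well above background on 3 arrays at 4 h. Its rise there was at least 1.80-fold, with the 0 h arrays set to the lowest signal well above background. From 4 h to 24 h 4 of the 6 fell in either treatment (32.4% of all genes in sham and 30.8% after nsPEF), Serpinb2 by a difference of -4.85 in sham, while the difference of Plau in sham turned from -0.59 to 0.07 with scaling to spike-in RNA. Of the calls at 4 h against 0 h, 0 of 51 in sham and 1 of 54 after nsPEF (Plscr2) changed sign under that scaling.

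**Figure D5:**
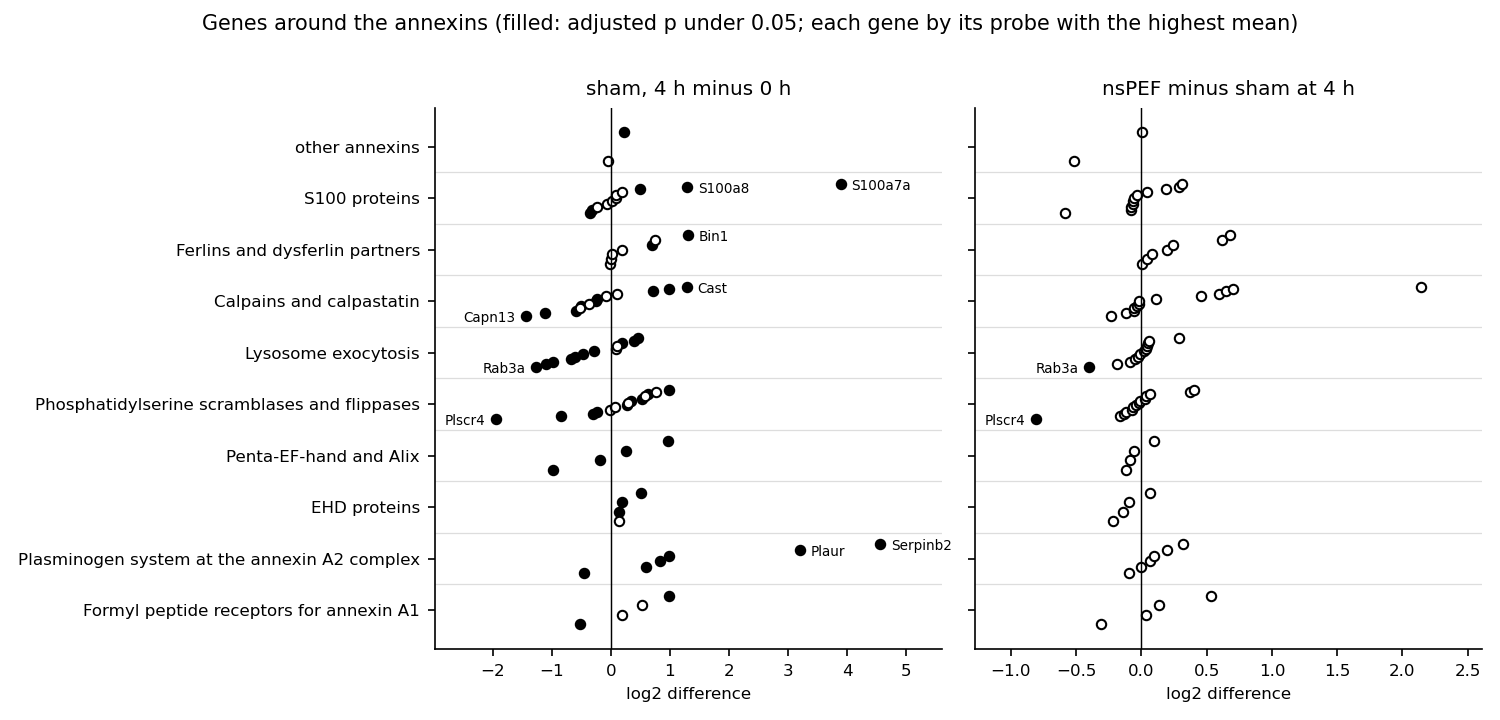
Log2 difference on the horizontal axis for the 77 listed genes tested, with 1 row per list and 1 point per gene by its brightest probe, of 4 h minus 0 h in sham on the left and of nsPEF minus sham at 4 h on the right (filled points have an adjusted p under 0.05 by limma). On the left Serpinb2 and Plaur of the plasminogen system lie at 4.57 and 3.20, and on the right Rab3a and Plscr4 are the 2 filled points, both below 0.

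Among the S100 relatives of S100a10, 3 of 11 tested genes rose and 2 fell in sham at 4 h, and 4 rose and 1 fell after nsPEF. Over all genes 30.3% rose and 35.5% fell in sham, and 34.6% rose and 33.2% fell after nsPEF. The same shares stand beside the 4 h count of each list below. S100a7a was well above background on the 8 arrays of 4 h and on no other, at least 3.93-fold above 0 h in sham and at least 2.63-fold after nsPEF, where the bound sets the dim arrays to the lowest signal well above background on the same array. S100a8 was well above background on 3 sham arrays of 4 h and on no other, at least 1.20-fold above 0 h. S100a3 rose by 0.49 in sham and 0.52 after nsPEF, S100a1 fell (-0.36 and -0.28), S100a4 fell in sham (-0.32, adjusted p = 0.0149) with -0.01 after nsPEF, S100a5 was not called in either, and S100a11, the partner of annexin A1, had changes of 0.09 in sham (adjusted p = 0.297) and 0.34 after nsPEF (adjusted p = 0.000274). Of the ferlins and their partners, 2 of 7 rose in sham (30.3% of all genes) and 5 of 7 after nsPEF (34.6%), with 0 lower. Bin1, which bends membrane, rose by 1.31 and 1.47 and Ahnak, the scaffold held by the annexin A2 complex, by 0.70 and 0.78, while Myof (myoferlin) had changes of 0.01 and 0.06. Dysf (dysferlin) had 0.75 in sham (adjusted p = 0.0710) and 1.33 after nsPEF (adjusted p = 0.00240), and Trim72 and Fer1l5 were well above background on 12 and 4 of the 24 arrays. At 4 h after nsPEF Fer1l5 was so on 1 array, and its bound against 0 h was 0.918-fold, so no rise is shown.

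The calpain system, whose proteases act on annexins and on the cortex at a wound, had 3 of 13 genes higher and 6 lower in sham at 4 h, and 4 higher and 3 lower after nsPEF. The shares over all genes were 30.3% higher and 35.5% lower in sham, and 34.6% and 33.2% after nsPEF. Cast rose by 1.29 and 1.27, Capn15 by 0.98 and 1.07 and Capn2 by 0.72 and 0.73. Capn5 fell (-1.12 and -0.51) and Capn9 fell in sham (-0.59) with 0.01 after nsPEF, and Capn13 was well above background on 5 arrays. In the lysosome list 3 of 12 rose and 7 fell in sham, and 4 rose and 7 fell after nsPEF. Lamp1 rose by 0.47 and 0.57, Ctsl by 0.39 and 0.45 and Ctsd by 0.19 and 0.23. Rab3a fell (-1.26 and -1.56) and Smpd1, the acid sphingomyelinase released at wounds, fell (-1.10 and -1.11), as did Tfeb, the regulator of lysosome genes (-0.97 and -1.16). Of the scramblases and flippases, which set the phosphatidylserine that annexin A5 binds, 5 of 14 rose and 4 fell in sham and 7 rose and 4 fell after nsPEF, and Ano6 rose by 0.98 and 0.93 and Xkr8 by 0.62 and 0.56. Plscr3 fell (-0.31 and -0.23), and Plscr4 was at least 3.17-fold lower at 4 h than at 0 h in sham and at least 1.74-fold lower after nsPEF, while Atp8a1 was well above background on 0 arrays of 4 h and Xkr4 was not called.

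Of the penta-EF-hand proteins and Alix, 2 of 4 rose and 2 fell in both treatments. For these and the next lists, 30.3% of all genes rose and 35.5% fell in sham, and 34.6% and 33.2% after nsPEF. Pdcd6ip, which encodes Alix of the membrane-shedding machinery, rose by 0.97 and 0.92 and its partner Pdcd6 by 0.26 and 0.38, while Pef1 (-0.98 and -0.99) and Sri (-0.19 and -0.16) fell. Of the EHD proteins 3 of 4 rose in sham and 2 after nsPEF, Ehd1 by 0.52 and 0.57 and Ehd4 by 0.19 and 0.18, while Ehd2 rose in sham (0.14) with -0.04 after nsPEF and Ehd3 was not called. Of the formyl peptide receptors that answer annexin A1, 1 of 4 was called higher (Fpr-rs3) and 1 lower (Fpr2) in sham and 2 higher after nsPEF (Fpr-rs3 and Fpr-rs6), and these and Fpr3 were well above background on 8, 23, 18 and 9 of the 24 arrays. Of the annexins outside the 10 genes, Anxa9 rose by 0.23 and 0.25, Anxa13 was tested and not called, and Anxa10 did not pass the filter.

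Markers of other testis cells and of Leydig cells differed over the same times. The summed level of the 10 Leydig markers lay between 9.83 and 10.6 in sham at 0 h, between 7.39 and 7.86 at 4 h and between 5.96 and 7.09 at 24 h. In nsPEF-exposed cells it lay between 8.51 and 9.60, then 7.44 and 7.49, then 5.92 and 6.90. Scarb1 and Cyp17a1 (mean signals of 2150 and 1037 units) outweigh the other Leydig markers (71.1 or less) in this sum. Of the 5 tested Leydig markers, 1 was called higher and 2 lower in sham at 4 h, and 2 higher and 1 lower after nsPEF. The summed level of 4 peritubular myoid markers (signals over the array's 75th percentile, of which Acta2 and Cnn1 were well above background on all 24 arrays) lay between 19.2 and 24.6 in sham at 0 h, between 31.3 and 38.5 at 4 h and between 18.9 and 20.2 at 24 h. After nsPEF it lay between 20.2 and 22.2, then 34.4 and 37.7, then 20.1 and 22.9. Acta2 (mean signal of 10727 units, against 96.4 or less for the others) makes up nearly all of this sum. At 4 h 2 of the 4 were called higher in sham, and 2 higher and 1 lower after nsPEF. The summed level of 6 macrophage markers lay between 3.71 and 3.93 in sham at 0 h, between 4.48 and 4.95 at 4 h and between 2.17 and 2.41 at 24 h. After nsPEF it lay between 3.31 and 3.64, then 4.45 and 4.78, then 2.21 and 2.54. Ptprc and Adgre1 were well above background on 1 array each, and of the 3 tested macrophage markers 1 was called higher and 2 lower at 4 h in either treatment. The summed level of 7 Sertoli markers lay between 0.895 and 0.927 in sham at 0 h, between 0.526 and 0.579 at 4 h and between 0.232 and 0.362 at 24 h. After nsPEF the Sertoli sum lay between 0.845 and 1.05, then 0.483 and 0.502, then 0.214 and 0.520. Over all other classes 4 of 13 tested markers were called higher and 5 lower in sham at 4 h, beside 30.3% and 35.5% of all genes. Of nsPEF against sham 0 of 13 passed at 4 h, where 1.7% of all genes were called lower and, counted over probes in place of genes, 2.91% were called. At 0 h 1 peritubular myoid marker was called higher and 1 macrophage marker lower (0.0891% of all genes were called). At 24 h 1 peritubular myoid marker was called higher and 1 germ cell marker lower, beside 3.19% and 2.54% of all genes. Their part in the changes of the annexins was not tested.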

How the data were processed

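RNA of 24 samples was labelled with Cy3 and hybridized by the authors to one-colour Agilent mouse arrays, which were read with Feature Extraction 12.0. The deposited scanner files give each spot's processed signal intensity, with background subtracted and not scaled between arrays. The deposited log2 values of the authors, shifted to the 75th percentile and set to the median of each probe, were used as an alternative.

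Of 62976 spots, 59305 were no controls, and spots of a probe that were not marked as outliers were averaged to 56605 probes. Values are log2 of the processed intensity minus the array's 75th percentile over spots, and the number of arrays limits the precision. The filter on low values was that of the paper: well above background on 2 of 4 arrays of any group (37684 probes). Group means were fitted in R 4.3.3 with limma 3.58.1 after reading with the package data.table (version 1.17.8). Adjusted p-values are Benjamini-Hochberg values over the tested probes, and a listed gene is represented by its brightest probe. Groups are counted as not overlapping over the 35691 probes with a value on every array. The paper's two-way analysis of variance, quantile normalization, spike-in scaling (169 spots of 6 probes), other percentiles, normexp with an offset of 50, other filters, marked spots kept, centring by spot row, a replicate block and left-out arrays were the alternatives. The fit was tested on simulated data. Python 3.11.15 with numpy 2.4.6 and pandas 2.3.3 made the summaries.

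Every probe of a member is named. Listed genes are named where they passed between nsPEF and sham or were among the 3 highest or lowest of their list at 4 h in sham, and further ones were named after their values were seen. For Anxa1, Anxa2 and S100a10 the 3 genes of highest Pearson r are named. Of these, 1 listed gene and 1 likest gene are not reported here. The members and lists were chosen with earlier results of these data known. The labels call the replicates biological and do not say how they were cultured, so p-values measure the spread between these samples. Deviations from the group means correlated only weakly between same-numbered samples of a time point (median r 0.0461, against -0.00953 for different numbers). Whether the numbers mark pairs is not known, and no block was used in the main fit.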

Additional observations from a re-analysis of the deposited data

Results flagged for a closer look

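In 4 of 90 groups of 4 arrays, 1 array stood far from the other 3 by Dixon's test, where chance gives about 1 in 20. The dimmer Anxa1 probe was at 6.21 on sham replicate 4 at 4 h, the array with the highest 75th percentile, against 6.57 to 6.62 on the other sham arrays. The same probe was at 6.52 on nsPEF replicate 4 at 4 h against 6.58 to 6.59. The dimmer Anxa4 probe was at 0.19 on sham replicate 4 at 24 h against -0.04 to -0.01. The dimmer S100a10 probe was at 4.36 on sham replicate 3 at 4 h against 4.09 to 4.11.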

How the results depend on the processing

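A change of sign was counted only where the value was called before or after it. Between nsPEF and sham, the count of 0 called probes at 4 h became 8 with spike-in scaling, 2 with the percentile over probes detected on all arrays, 1 without a filter and 1 with centring by spot row. At 24 h it became 1 with quantile normalization, and over all times 1 with quantile normalization, 3 with spike-in scaling and 1 with the deposited log2 values. For 24 h against 4 h in sham 13 probes were called with spike-in scaling, and for 24 h against 0 h 14 in sham with spike-in scaling and 4 in sham and 4 in nsPEF when only the 8 arrays compared were fitted. With single arrays or replicate numbers left out, the counts were 0 in every comparison of nsPEF with sham and for the interaction, 9 to 11 for 4 h against 0 h in sham and in nsPEF, 8 to 9 for 24 h against 4 h in both, 3 (without replicate 3) to 8 for 24 h against 0 h in sham and 5 (without replicate 4) to 11 in nsPEF.

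Spike-in scaling turned these differences. For 24 h against 4 h in sham it gave Anxa2 0.21 (brighter), Anxa3 0.35 and 0.13, Anxa5 0.26, Anxa6 0.55, Anxa7 0.61, Anxa11 0.47 and S100a10 0.24 and 0.26. For 24 h against 0 h in sham it gave Anxa1 0.56 and 0.67, Anxa2 0.64 and 0.68, Anxa4 0.68 (brighter), Anxa5 0.67, Anxa6 0.12, Anxa7 0.66 and Anxa8 0.41. For nsPEF it gave Anxa1 0.34 (brighter), Anxa6 0.32 and Anxa7 0.27 at 24 h against 4 h, and Anxa1 0.37 and 0.49, Anxa4 0.34 (brighter), Anxa5 0.53, Anxa7 0.35 and Anxa8 0.13 at 24 h against 0 h. Quantile normalization turned the dimmer Anxa1 probe at 24 h against 0 h in sham to 0.13. The cause was not tested.

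Of the other single-probe results under alternatives that leave out no array, 1070 on time and 572 on treatment kept direction and side of the threshold, 31 and 13 came past it and 41 and 0 lost the call. The percentile over probes in place of spots was chosen after seeing the data. With the replicate number as a block, the sham counts became 11 at 4 h against 0 h and 6 at 24 h against 0 h and the other counts stayed as they were; same-numbered samples of a time point correlated between -0.0469 and 0.0997 over 12 pairs, none over 0.1. The study ran the tests of a biological replicate on 1 cell suspension, and whether the deposited numbers mark these suspensions is not stated, so the pairing stays unknown; with the block the brighter Anxa1 probe was called at 4 h in sham (adjusted p = 0.0344) and the dimmer Anxa4 probe lost its call at 24 h (adjusted p = 0.0582). Signal over background limits Anxa11 and the listed genes named as dim.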
